A study of Bos taurus with 18 samples.

Results

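The genes described here are 46 listed names that encode plasma proteins made by the liver and enzymes and regulators of hepatocytes, of which 45 had a row in a table of 24596 bovine genes. The remaining name, ORM1 (orosomucoid), was not analysed here. The members were listed because of their height in 3 libraries of a Holstein-like fibroblast line, immortalized 1, senescent 3 and senescent 2, called the liver-rich libraries in the following. Their levels in the Holstein-like line, and the gap between these 3 libraries and the other 15, are therefore given as a description with no test. RNA was sequenced in 18 libraries from 2 lines labelled as cow fibroblasts grown over long-term culture, with 3 libraries at each of 3 stages. The Holstein-like line was sampled as primary (PBF-15), senescent (Sn-BF-15) and immortalized (HUN-BF-15) cells, and the Simmental-like line as primary (PBF-13), senescent (Sn-BF-13) and immortalized (HUN-BF-13) cells. No transgene, agent or age is given for any group, and each breed is represented by a single line. Each stage's columns bear another name, so a stage cannot be told apart from the culture it was taken from. In the Holstein-like line these are BEF for primary, BF-15-P9 for senescent and BF-15-P23 for immortalized libraries, where both later stages share BF-15. In the Simmental-like line they are BDF-20-3B-4 for primary, BDF-20-MultiXray-Ctrl for senescent and BF-13 for immortalized libraries. All Holstein-like columns end in Rerun and no Simmental-like column does, so that mark cannot be told apart from the line. Replicates are called biological, but nothing states that they came from separate cultures or animals. A p-value here therefore sets a difference between stages only against the variation among libraries of a stage, and that variation may be technical.

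Hepatocytes make most of the proteins of blood plasma: albumin and other carriers, the clotting factors, the complement proteins and the apolipoproteins that carry fat. They also dispose of ammonia through the urea cycle and release sugar between meals. In inflammation the liver makes more of some of these proteins, the positive acute phase proteins such as haptoglobin and fibrinogen, and less of others such as albumin and transthyretin. Fibroblasts are connective tissue cells and are not known as a source of albumin or fibrinogen.

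Total counts were 11.9, 13.3 and 12.9 M (M for 1e+06) in the liver-rich libraries immortalized 1, senescent 3 and senescent 2, 10.98 to 14.1 M in the other 3 senescent and immortalized Holstein-like libraries, 18.2 to 23.2 M in the Simmental-like libraries and only 1.42 to 1.47 M in Holstein-like primary cells. Levels are given as CPM, counts per 1e+06 counts of a library, which are not per length and so are compared between libraries and not between genes. Where no count was found, up to 3 counts remain possible, or between 0.129 CPM (largest library) and 2.11 CPM (smallest). Such limits, and the intervals given below, cover counting error only. Marker genes went against the fibroblast label in most Holstein-like libraries. Fibroblast culture markers took 0.137%, 0.0614% and 0.0313% of counts in immortalized 1, senescent 3 and senescent 2, against 3.82 to 6.32% in the Simmental-like libraries. Skeletal muscle markers took 18.3 to 18.4% of counts in the Holstein-like primary libraries, 7 of 7 heart markers were detected in senescent 1 with 1.82% of its counts, and 10 of 10 kidney markers took 1.21% of counts in immortalized 2. In immortalized 3, fibroblast culture markers took 6.38%, but endothelial and macrophage markers were present as well. The senescent or immortalized Holstein-like libraries of 1 stage therefore cannot stand for replicates of each other, and each is given by itself.

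Together the 45 members took 30.6% of all counts in immortalized 1, 29.7% in senescent 3 and 28.7% in senescent 2. In the other Holstein-like libraries of these stages they took 0.853% (immortalized 2), 0.676% (senescent 1) and 0.446% (immortalized 3), in the Holstein-like primary libraries 0.00402 to 0.00519%, and in the Simmental-like libraries 0.00433 to 0.0141%. In 41 of the 45 members (91.1%), the lowest of the 3 liver-rich libraries lay above each of the other 15, a difference the choice of members fixes and that is printed beside a background of 6.41% of 14113 genes. The 4 exceptions were APOE, PCK1, G6PC and HNF4A, each of which was higher in immortalized 2 or immortalized 3 than in the lowest liver-rich library. These are bulk samples, in which fewer cells of a type and less RNA per cell cannot be told apart. Members with no count numbered 35 to 38 in the Holstein-like primary libraries and 22 to 32 in the Simmental-like libraries, but 0 in senescent 1.

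**Figure D1:**
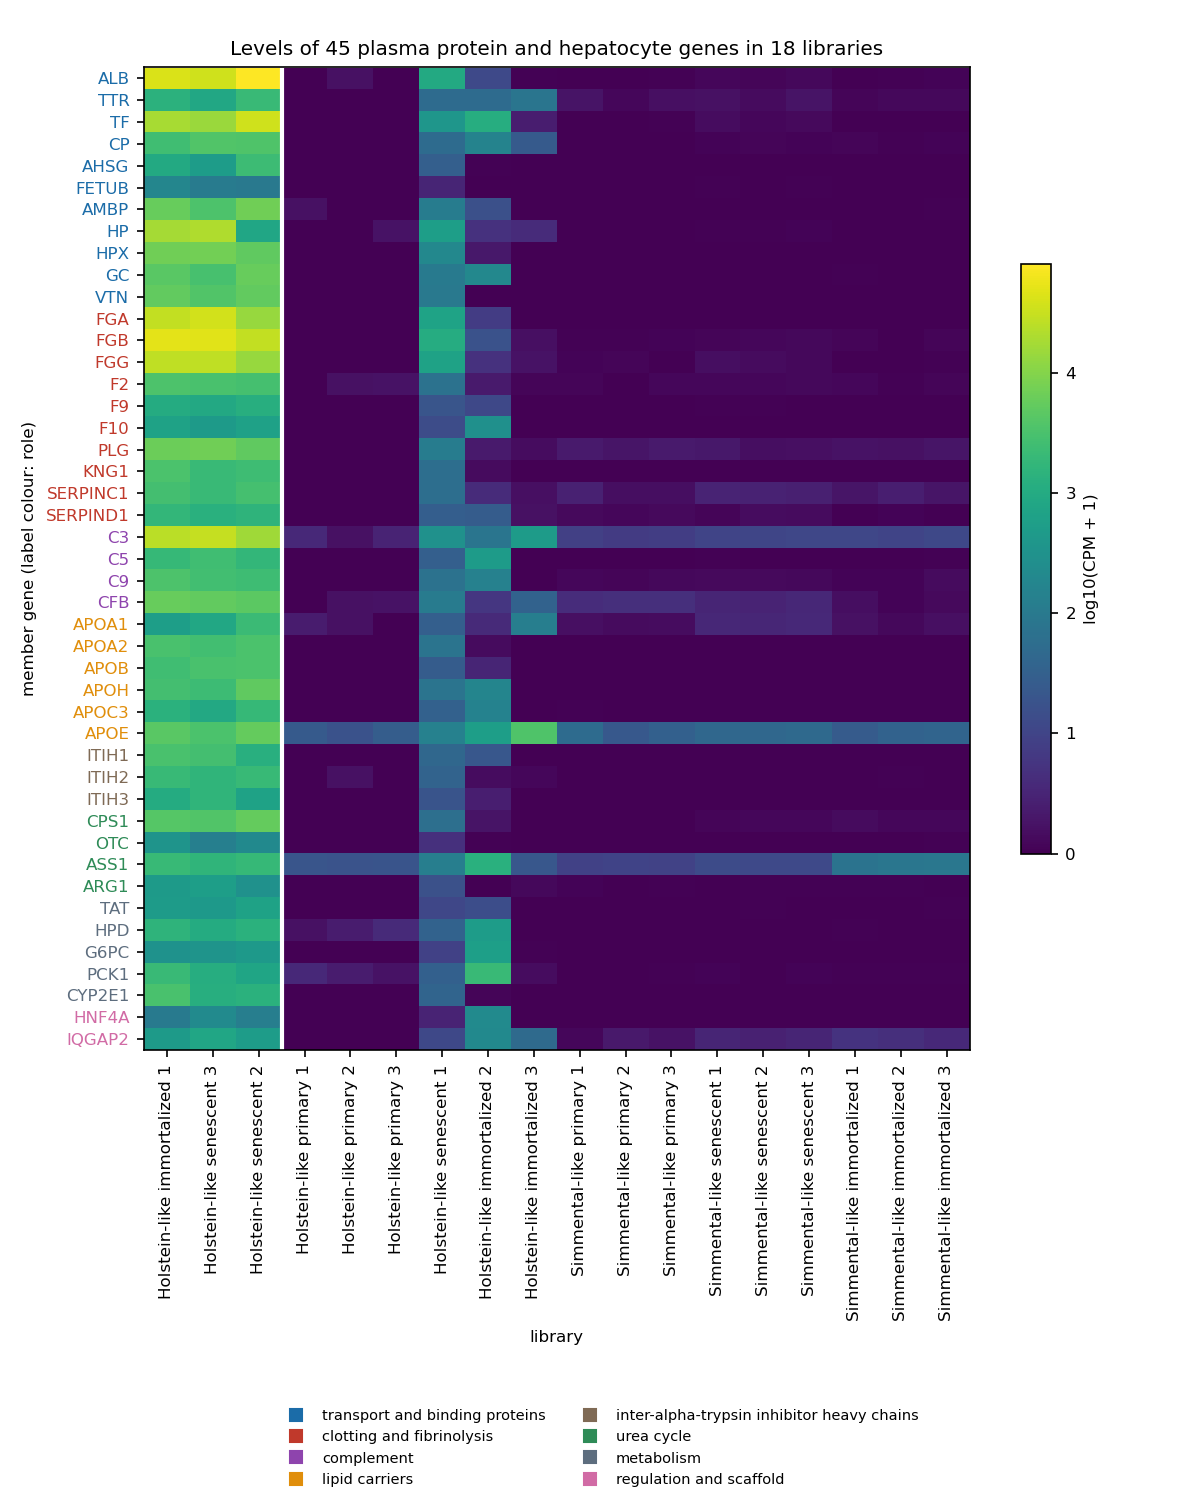
Level of each of the 45 members (rows, named by gene and coloured by role) in each of the 18 libraries (columns), as log10(CPM + 1), with the 3 liver-rich libraries left of the white line. Immortalized 1, senescent 3 and senescent 2 are high throughout, senescent 1 is lower in the same rows, and the Holstein-like primary and Simmental-like columns are near 0 except for a few rows such as APOE and ASS1.

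Carrier and binding proteins took 10.6% of counts in immortalized 1, 9.51% in senescent 3 and 14.9% in senescent 2. ALB encodes albumin, the main carrier of fatty acids and hormones in plasma, and had 41947, 36362 and 81265 CPM in immortalized 1, senescent 3 and senescent 2. It had 963 CPM in senescent 1, 11.1 CPM in immortalized 2 and at most 0.682 CPM in each of the other 13 libraries. Senescent 2 thus stood alone at the high end for albumin. TF, transferrin, which carries iron, had 18841, 14792 and 35700 CPM in the same 3 libraries, again with senescent 2 highest. TTR, the thyroid hormone and retinol carrier transthyretin, had 1423, 884 and 2097 CPM. AHSG, the mineral-binding protein fetuin-A, had 941, 509 and 2341 CPM. Its relative FETUB ran differently, with 180, 108 and 97.0 CPM, so that senescent 2 was lowest of the 3.

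Haptoglobin was the member that differed most among the 3 liver-rich libraries. HP binds free haemoglobin and is a major positive acute phase protein of cattle, and it had 17449, 21042 and 787 CPM in immortalized 1, senescent 3 and senescent 2. HPX, hemopexin, binds free haem and had 7134, 7379 and 5175 CPM, lowest in the same library but by far less. CP, the copper carrier ceruloplasmin, had 2485, 3818 and 3634 CPM. The remaining carriers were AMBP, the precursor of alpha-1-microglobulin and bikunin (5916, 3474 and 6948 CPM), GC, the vitamin D carrier (4479, 2998 and 5801 CPM), and VTN, the adhesion protein vitronectin (5423, 3762 and 5381 CPM). All 3 were lowest in senescent 3, and VTN did not differ between immortalized 1 and senescent 2 beyond counting error.

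Clotting and fibrinolysis genes took 12.7% of counts in immortalized 1, 13.04% in senescent 3 and 7.41% in senescent 2, and most of this was the 3 fibrinogen chains, with 10.7%, 11.3% and 5.75%. FGA, FGB and FGG encode the alpha, beta and gamma chains that are assembled into fibrinogen and lie next to each other in the RefSeq gene order (FGG, FGA, FGB). FGA had 28651, 37040 and 14230 CPM in immortalized 1, senescent 3 and senescent 2. FGB had 50907, 48547 and 28774 CPM. FGG had 27748, 27559 and 14454 CPM. Senescent 2 was lowest for each chain, and immortalized 1 and senescent 3 were within 5% of each other for FGB and FGG but not for FGA. In senescent 1 the chains had 718 (FGA), 1115 (FGB) and 688 (FGG) CPM, and in immortalized 2 no chain passed 16.1 CPM.

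The other clotting members were more even across the liver-rich libraries. F2, prothrombin, had 3387, 3170 and 2855 CPM in immortalized 1, senescent 3 and senescent 2. The vitamin K-dependent factors F9 (1060, 928 and 1198 CPM) and F10 (688, 483 and 649 CPM) stayed within 1.5 times of each other across these libraries. SERPINC1, antithrombin, had 2726, 2144 and 2916 CPM, and SERPIND1, heparin cofactor II, had 1773, 1333 and 1570 CPM. KNG1, the precursor of bradykinin, had 3319, 2151 and 2419 CPM. PLG, plasminogen, which is activated to dissolve fibrin, had 6379, 7026 and 5035 CPM and was the only one of these 7 for which senescent 3 was highest.

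Complement genes took 3.67%, 4.07% and 2.48% of counts in immortalized 1, senescent 3 and senescent 2, lowest in senescent 2. C3, the central complement protein, had 25319, 30124 and 15958 CPM. C5, which starts the membrane attack complex, had 1939, 2546 and 1799 CPM. C9, the pore-forming subunit of that complex, had 3423, 2613 and 2439 CPM. CFB, the protease of the alternative pathway, had 5997, 5411 and 4619 CPM. Each of the 4 was lowest in senescent 2.

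Lipid carriers had the opposite order, with 1.48%, 1.31% and 2.16% of counts. APOA1, the main protein of high density lipoprotein, had 567, 871 and 2187 CPM in immortalized 1, senescent 3 and senescent 2. APOA2, another protein of that particle, had 3098, 2595 and 3266 CPM. APOB, the structural protein of low and very low density lipoprotein, had 2501, 3160 and 3362 CPM. APOC3, an inhibitor of triglyceride clearance, had 1377, 921 and 1944 CPM, and APOH, beta-2-glycoprotein I, had 2774, 2290 and 5226 CPM. APOE, a ligand of lipoprotein receptors that many tissues make, had 4520, 3238 and 5597 CPM. Senescent 2 was highest for all 6. The inter-alpha-trypsin inhibitor heavy chains, which stabilise hyaluronan, were split: ITIH1 (3193, 2716 and 1241 CPM) and ITIH3 (1032, 1664 and 676 CPM) were lowest in senescent 2, whereas ITIH2 had 2038, 1609 and 2035 CPM.

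The urea cycle genes took 0.689%, 0.619% and 0.816% of counts in immortalized 1, senescent 3 and senescent 2. CPS1, the mitochondrial entry enzyme of the cycle, had 4059, 3856 and 5724 CPM. OTC, the next mitochondrial step, had 352, 128 and 209 CPM. ASS1, which joins citrulline and aspartate in the cytosol, had 2000, 1645 and 1915 CPM, and ARG1, which releases urea, had 478, 564 and 310 CPM. No library was highest for all 4 enzymes. Among the metabolic members, TAT and HPD act on tyrosine, with 492, 460 and 677 CPM for TAT and 1562, 1043 and 1342 CPM for HPD. The gluconeogenic genes PCK1 (2086, 1154 and 755 CPM) and G6PC (321, 340 and 451 CPM) ran in opposite orders. CYP2E1, a cytochrome that oxidises ethanol and small solvents, had 3187, 1216 and 1394 CPM, highest in immortalized 1. HNF4A, a transcription factor that controls many hepatocyte genes, had 106, 220 and 123 CPM, and IQGAP2, a scaffold protein with high expression in liver, had 477, 793 and 520 CPM. Both were highest in senescent 3.

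**Figure D2:**
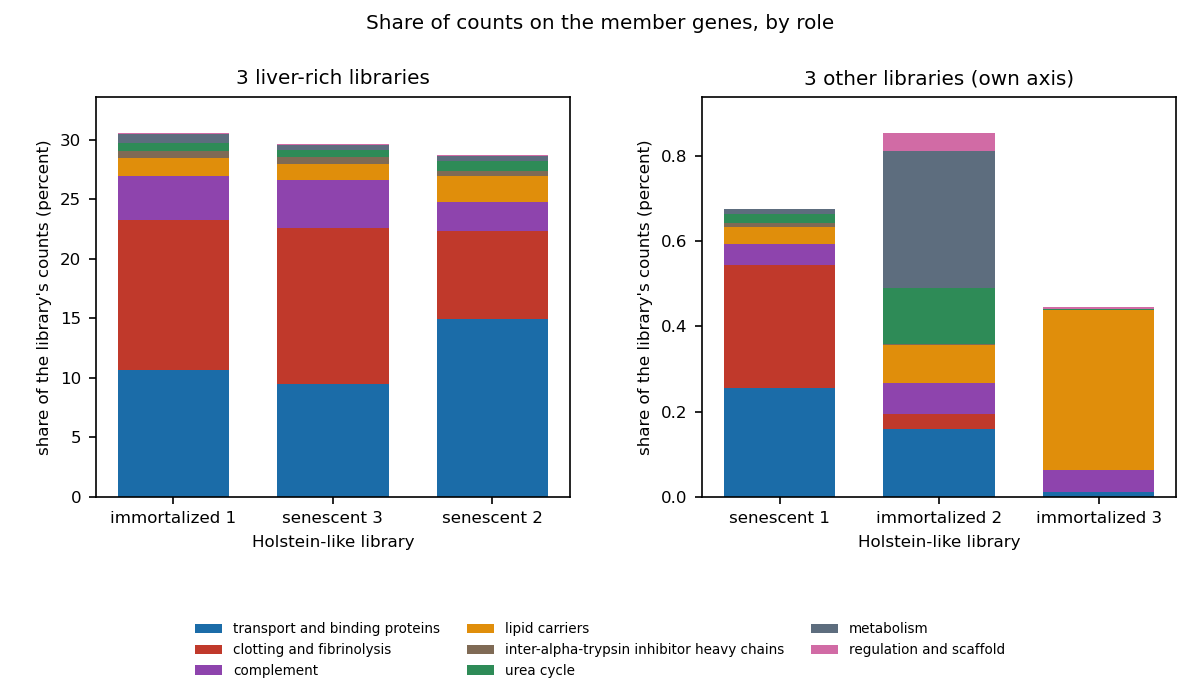
Percent of a library's counts taken by the members of each role, stacked, for the liver-rich libraries immortalized 1, senescent 3 and senescent 2 (left axis panel) and for senescent 1, immortalized 2 and immortalized 3 (right panel, on its own smaller axis). Senescent 2 shows more carrier counts (14.9%) and fewer clotting counts (7.41%) than immortalized 1 and senescent 3, and in immortalized 3 lipid carriers make up 0.376% of all counts, most of the members' 0.446%.

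The 3 liver-rich libraries were then set against each other, each pair as a ratio of CPM with an exact 95% interval for counting error. With single libraries there is no replicate check, and the genes past 2-fold are a description. Senescent 3 over senescent 2 had 4 members past 2-fold higher and 7 past 2-fold lower, where 13.2% and 5.99% of 11845 genes with enough counts lay past 2-fold higher and lower. The members higher in senescent 3 were HP with a ratio of 26.7 (interval 26.2 to 27.3), FGA with 2.60 (2.59 to 2.62), ITIH3 with 2.46 and ITIH1 with 2.19. The members lower in senescent 3 were AHSG with a ratio of 0.218, APOA1 with 0.398, TF with 0.414, TTR with 0.422, APOH with 0.438, ALB with 0.447 (0.446 to 0.449) and APOC3 with 0.474. Just inside 2-fold lay AMBP with 0.50007, FGG with 1.91 and C3 with 1.89. In all, 19 members lay above 1 and 26 below, and the median log2 ratio was -0.22 over the members and 0.11 over all genes compared.

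Immortalized 1 over senescent 2 had 5 members past 2-fold higher and 2 lower, where 10.5% and 6.87% of 11767 genes lay past 2-fold higher and lower. HP had a ratio of 22.2 (21.7 to 22.6), PCK1 2.76, ITIH1 2.57, CYP2E1 2.29 and FGA 2.01, while APOA1 had 0.259 and AHSG 0.402. ALB had a ratio of 0.516 and TF of 0.528. Of the 11 carriers 4 lay above 1 (HP, FETUB, HPX and VTN) and 7 below. The median log2 ratio was 0.06 over the members and -0.15 over all genes compared. Senescent 2 enters both of these pairs, so their values share its counts and are given side by side. Immortalized 1 over senescent 3, libraries of 2 different stages, had the fewest members past 2-fold: OTC with a ratio of 2.74 (2.59 to 2.90) and CYP2E1 with 2.62 (2.57 to 2.67) were higher and HNF4A with 0.479 (0.448 to 0.512) was lower. Of all 12226 genes compared in that pair, 3.03% lay past 2-fold higher and 6.22% lower. Across the 45 members, the Pearson correlation of log CPM was 0.968 for immortalized 1 with senescent 3, 0.887 for immortalized 1 with senescent 2 and 0.863 for senescent 3 with senescent 2. These are descriptions over genes of the same libraries.

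Grouped by what is known of their plasma levels in inflammation, the members fell on different sides. Of the 10 measured members whose plasma level rises in inflammation (CP, HP, HPX, FGA, FGB, FGG, C3, C9, CFB and ITIH3), 10 were higher in senescent 3 than in senescent 2, 3 of them past 2-fold, with a median log2 ratio of 0.84. In immortalized 1 over senescent 2, 9 of these 10 were higher, with a median of 0.64, and the exception was CP with a ratio of 0.684. Of the 7 members whose plasma level falls in inflammation (ALB, TTR, TF, AHSG, FETUB, APOA1 and SERPINC1), 6 were lower in senescent 3 than in senescent 2, 5 of them past 2-fold, with a median of -1.25. In immortalized 1 over senescent 2, 6 of these 7 were lower, with a median of -0.92, and FETUB was the exception in both pairs. Between immortalized 1 and senescent 3 4 of the 10 and 6 of the 7 were higher in immortalized 1, with medians of -0.15 and 0.35. Of all genes compared, 13.2% lay past 2-fold higher and 5.99% lower in senescent 3 over senescent 2. In immortalized 1 over senescent 2 these shares were 10.5% and 6.87%. The median log2 ratios of all genes were 0.11, -0.15 and -0.22 in the 3 pairs as ordered here. The same shares stand beside the counts of the other lists below. The members were chosen with these libraries in view, so none of these counts is a test.

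Other acute phase genes, which are not members, differed in the same pairs. ITIH4 had 9671 CPM in immortalized 1 and 11403 CPM in senescent 3, against 1272 CPM in senescent 2, and lies beside ITIH3 and ITIH1 in the RefSeq gene order. Of the 12 such genes compared, 5 lay past 2-fold higher and 0 lower in senescent 3 over senescent 2, and 7 higher and 2 lower in immortalized 1 over senescent 2. SERPINA3-1, SERPINA1 and CRP are named with ITIH4 for their lowest CPM over the 3 libraries, and CRP differed little, with 2239, 2546 and 1981 CPM in immortalized 1, senescent 3 and senescent 2. Genes of the SERPINA3 group are near-identical copies whose counts may be split between them. Chosen after their values were seen, LBP, which binds bacterial lipopolysaccharide, had 853, 853 and 270 CPM in the same order, and SAA3 had 21.1, 98.9 and 5.89 CPM. A2M, a broad protease inhibitor from the list of plasma carriers, chosen in the same way, had 1944, 2633 and 268 CPM. Other acute phase genes were highest in senescent 2: SERPINA1 (2846, 3394 and 3658 CPM), HAMP (763, 1852 and 2054 counts) and SAA4 (4905, 9264 and 12177 counts). Of the 12 genes, 4 lay below 1 in senescent 3 over senescent 2 and 3 in immortalized 1 over senescent 2. Among other complement genes, 6 of 16 lay past 2-fold higher and 0 lower in each of the 2 pairs with senescent 2.

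Lipid handling genes outside the members lay on the other side. Of 12 compared, 4 were past 2-fold lower and 0 higher in senescent 3 over senescent 2, and 3 lower and 0 higher in immortalized 1 over senescent 2. APOA4 had 548 and 935 CPM in immortalized 1 and senescent 3, against 3590 CPM in senescent 2, and stands between APOA5 and APOC3 in the RefSeq gene order, with APOA1 next. FABP1, the fatty acid binding protein of liver, had 243 and 232 CPM, against 1096 CPM in senescent 2. Bile and drug genes had 6 of 19 past 2-fold higher and 2 lower in senescent 3 over senescent 2, and 7 higher and 0 lower in immortalized 1 over senescent 2. Their leading genes included CYP1A2, with 2253, 1914 and 898 CPM in immortalized 1, senescent 3 and senescent 2. Among amino acid genes 4 of 19 lay past 2-fold higher and 1 lower in senescent 3 over senescent 2, and MAT1A, which makes S-adenosylmethionine, had 1091, 940 and 319 CPM. BHMT, an enzyme of the same methionine cycle chosen after its values were seen, had 1556, 1721 and 220 CPM.

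Markers of other liver cells also differed between these libraries. Of 11 macrophage markers compared, 4 lay past 2-fold higher and 0 lower in senescent 3 over senescent 2, and 8 higher and 0 lower in immortalized 1 over senescent 2. Of 7 sinusoidal and endothelial markers, 4 and 3 lay past 2-fold higher in these pairs. All 8 fibroblast culture markers were higher in both pairs, with median log2 ratios of 1.08 for senescent 3 over senescent 2 and 1.92 for immortalized 1 over senescent 2. Heart, kidney and skeletal muscle markers each took at most 0.000377% of counts in the liver-rich libraries. The part of the macrophage, endothelial and fibroblast markers in the members' differences was not tested.

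Beyond the members, 134 genes of other liver lists had a row, and most of the plasma protein lists had the same separation of the liver-rich libraries from the rest. The lowest liver-rich library lay above each of the other 15 for 14 of 15 other clotting genes, 15 of 16 other complement genes, 17 of 19 bile and drug genes and 11 of 13 liver transcription factors. This separation held for 6.41% of the 14113 genes with a count in each liver-rich library. Weaker lists were other plasma carriers (13 of 17), other amino acid genes (12 of 19) and other sugar genes (6 of 10). Among markers of other liver cells, 4 of 11 macrophage, 1 of 7 bile duct and 2 of 7 stellate cell markers had it. So did 6 of 9 periportal and 5 of 9 pericentral genes, and 0 of 7 red cell genes. The periportal list includes the members ALB, CPS1, ASS1, ARG1, PCK1 and G6PC, and the pericentral list CYP2E1, so the choice of members enters these counts. Of the periportal genes that are not members, HAL and GLS2 had this separation and SDS did not. Fetal liver genes were mixed, and 1 of 6 had this separation. AFP, the fetal relative that neighbours ALB, had 0.335, 0.150 and 0.310 CPM in immortalized 1, senescent 3 and senescent 2. GPC3 had 206, 279 and 315 CPM in the same order, against at most 72.9 CPM elsewhere. IGF2 had 2082, 2438 and 1504 CPM, but it was not particular to these libraries, with 1784 CPM in immortalized 3. The 12 genes with the pattern most like the members, by the ratio of their lowest liver-rich CPM plus 1 to their highest CPM elsewhere plus 1, had ratios of 41.0 to 52.7 over the 18 libraries. They were HRG (51.4), C6 (47.9), SERPINA10 (45.2), ATA3 (44.96), MGC137211 (44.0), APOA5 (43.1), C8B (42.8), SERPINA1 (41.3), HSD17B13 (41.3) and UGT3A1 (41.0), with ENSBTAG00000047815 (52.7) and ENSBTAG00000039463 (45.4), which have no gene name in the table. HRG, histidine-rich glycoprotein, had 985, 587 and 610 CPM in immortalized 1, senescent 3 and senescent 2 and 10.4 CPM in senescent 1, and it lies between KNG1 and FETUB in the RefSeq gene order.

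Senescent 1 held every member at a low level. All 45 were detected, at a median of 2.06% of their CPM in immortalized 1 (interquartile range 1.74 to 2.48%), 2.58% of that in senescent 3 (1.99 to 3.01%) and 1.97% of that in senescent 2 (1.64 to 2.63%). Over the 45 members its log CPM correlated with immortalized 1 at 0.968, with senescent 3 at 0.949 and with senescent 2 at 0.885 (Pearson), as a description across genes. HP had 560 CPM in senescent 1, which was 71.1% of the level in senescent 2. The ratio of HP counts to ALB counts was 0.581 (95% counting interval 0.565 to 0.597) in senescent 1, and 0.416 in immortalized 1, 0.579 in senescent 3 and 0.00969 in senescent 2. In this ratio senescent 1 lay near senescent 3, but not in each of the others. AHSG over ALB counts was 0.0311 in senescent 1, and 0.0224 in immortalized 1, 0.0140 in senescent 3 and 0.0288 in senescent 2. C3 over ALB counts was 0.309 in senescent 1, below 0.604 in immortalized 1 and 0.828 in senescent 3 and above 0.196 in senescent 2. The ratio of TF to ALB counts varied little, at 0.395 in senescent 1, 0.449 in immortalized 1, 0.407 in senescent 3 and 0.439 in senescent 2. The heart markers of this library included TNNI3 (9666 CPM) and TNNT2 (4098 CPM), and skeletal muscle markers took 3.17% of its counts. That share came largely from MYH7 (253326 counts) and CKM (103156 counts). MYH1, MYH2 and ATP2A1 had only 194, 40 and 63 counts, against 92465, 11987 and 27309 in the smaller library Holstein-like primary 1. The part of the heart and muscle markers in the members' levels was not tested.

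Immortalized 2 had a different set of members. Of the 45, 10 reached at least 10% of their lowest liver-rich CPM and 25 stayed under 1%. PCK1 had 2088 CPM (277% of the lowest liver-rich level), G6PC 596 CPM (186%) and HNF4A 218 CPM (207%), each above the lowest liver-rich library. ASS1 reached 79.5%, F10 61.4%, HPD 48.5%, IQGAP2 45.2%, C5 28.0%, APOE 17.4% and APOC3 15.9%. The main plasma carriers and clotting genes were low there, with 11.1 CPM for ALB, and FETUB, VTN and ARG1 had 0 counts, which allows up to 0.273 CPM. TF, at 1152 CPM, stood apart from ALB, with a ratio of counts of 104. Kidney markers in this library included LRP2 (2808 CPM), UMOD (2452 CPM), CUBN (2201 CPM) and SLC12A1 (1510 CPM), and gluconeogenesis through PCK1 and G6PC is also a known function of the kidney cortex. Their part in the members' levels was not tested.

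Immortalized 3 was the Holstein-like library with the highest share of fibroblast culture markers. It also had endothelial and macrophage markers, such as PECAM1 (1460 CPM) and CD163 (136 CPM). MKI67, on the list of fibroblast culture markers, had 162 counts there, against 1918 to 8916 counts in the Simmental-like libraries. Immortalized 3 had few members, and the part of these markers in their levels was not tested. No count was found for 24 of the 45, and ALB had 1 count. APOE was the exception with 3632 CPM, or 112% of its lowest liver-rich level. APOA1 had 123 CPM (21.7%), IQGAP2 49.2 CPM (10.3%), TTR 80.7 CPM (9.13%), C3 488 CPM (3.06%) and ASS1 20.3 CPM (1.23%), and all others lay under 1%. In the Holstein-like primary libraries, with 2.05 to 2.11 CPM as the limit for a count of 0, the members well above that limit were APOE, with 23.3, 16.4 and 26.7 CPM, and ASS1, with 18.5, 17.0 and 17.6 CPM.

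**Figure D3:**
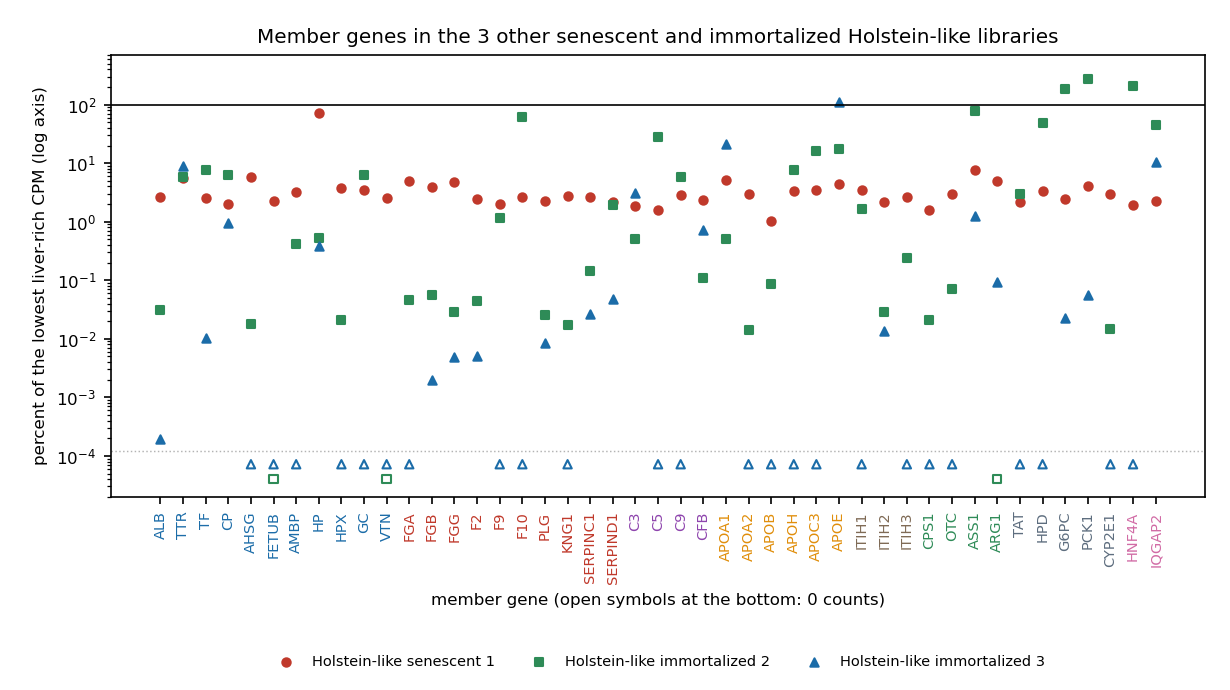
Level of each member in senescent 1, immortalized 2 and immortalized 3 as a percent of its lowest CPM in the 3 liver-rich libraries (log axis, line at 100%), with open symbols for 0 counts. In senescent 1 the members lie between 1.02% (APOB) and 7.63% (ASS1) except HP at 71.1%, in immortalized 2 PCK1, HNF4A and G6PC lie above the line, and in immortalized 3 APOE lies at 112%.

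In the Simmental-like line the choice of members used no difference between stages, so stages were tested there with edgeR's quasi-likelihood F-test on TMM-scaled counts, Benjamini-Hochberg adjusted over 13099 genes with a threshold of 0.05. Only 9 of the 45 members had enough counts, namely IQGAP2, PLG, APOA1, SERPINC1, APOE, TTR, C3, ASS1 and CFB. Of the other 36, 14 had 0 counts in all 9 libraries. Those with the most counts, summed over 9 libraries, were C9 with 44, SERPIND1 with 40 and FGG with 30, and ALB had 16. TF had 19 of its 20 counts in the senescent libraries. Levels in this line are given as TMM-scaled CPM, with log2 changes ± SE from the fit.

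ASS1, which also supplies arginine in many cell types, had 10.97, 9.57 and 9.41 CPM in the primary, 10.6, 9.66 and 9.76 CPM in the senescent and 70.8, 80.1 and 84.7 CPM in the immortalized libraries. The immortalized libraries lay apart from both other stages, which overlapped on this scale. With total-count scaling the primary and senescent libraries did not overlap, with 11.2 to 12.3 CPM in the senescent and 7.95 to 8.75 CPM in the primary libraries, and ASS1 was called there (0.48, adjusted p = 0.00601). ASS1 rose by 2.97 ± 0.12 in immortalized over senescent (adjusted p = 2.24e-06) and by 2.98 ± 0.12 in immortalized over primary libraries (adjusted p = 4.34e-07). CFB had 4.50, 3.86 and 4.11 CPM in the primary, 1.88, 1.81 and 2.14 CPM in the senescent and 0.478, 0.0958 and 0.295 CPM in the immortalized libraries, with no overlap between stages. It fell by 1.09 ± 0.27 in senescent over primary (adjusted p = 0.00869), by 2.75 ± 0.36 in immortalized over senescent (adjusted p = 0.00067) and by 3.84 ± 0.35 in immortalized over primary libraries (adjusted p = 4.05e-05). With total-count scaling the change of CFB in senescent over primary was -0.62 (adjusted p = 0.0732) and was no longer called.

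APOA1 had 0.817, 0.424 and 0.498 CPM in the primary, 2.13, 2.09 and 2.36 CPM in the senescent and 0.637, 0.288 and 0.540 CPM in the immortalized libraries, so the senescent libraries lay above both other stages. It rose by 1.94 ± 0.30 in senescent over primary (adjusted p = 0.000914) and fell by 2.16 ± 0.30 in immortalized over senescent libraries (adjusted p = 0.000888). IQGAP2 had 0.341, 1.23 and 0.872 CPM in the primary, 1.92, 1.54 and 1.92 CPM in the senescent and 4.196, 3.40 and 2.65 CPM in the immortalized libraries, with no overlap between stages. It rose by 2.01 ± 0.36 in immortalized over primary libraries (adjusted p = 0.00192) and by 1.09 ± 0.37 in senescent over primary libraries (adjusted p = 0.0337). That last call was lost without primary 3, senescent 1, senescent 2 or senescent 3 (adjusted p = 0.0773, 0.0887, 0.0554 and 0.0847 in that order), and the change of 0.92 in immortalized over senescent libraries did not pass (adjusted p = 0.0574). PLG had 1.70, 0.943 and 1.495 CPM in the primary, 0.9202, 0.453 and 0.535 CPM in the senescent and 0.691, 0.623 and 0.884 CPM in the immortalized libraries. It fell by 1.08 ± 0.34 in senescent over primary libraries (adjusted p = 0.0241), a call that was lost without primary 3, senescent 2 or senescent 3 (adjusted p = 0.0676, 0.0827 and 0.0788 in that order) and with total-count scaling (-0.60, adjusted p = 0.124).

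Of the 9 members tested, 4 were called in senescent over primary libraries, 2 higher and 2 lower, where 58.0% of all genes tested were called (28.3% higher and 29.7% lower). With total-count scaling the split was 4 higher (IQGAP2, APOA1, C3 and ASS1) and 0 lower. In immortalized over senescent libraries 3 of 9 were called, beside 32.4% of all genes (16.4% higher and 16.1% lower), and in immortalized over primary libraries 3 of 9, beside 50.4% (24.9% higher and 25.5% lower). The members' counts are small and close to these backgrounds, and are no result about the members. Stages did not overlap for 4, 7 and 4 of the 9 members in these 3 comparisons, beside 66.6%, 70.9% and 56.3% of all genes. SERPINC1, APOE, TTR and C3 passed in none of the 3 comparisons. APOE, with 71.3, 23.1 and 36.1 CPM in the primary, 36.2, 37.3 and 40.4 CPM in the senescent and 24.3, 33.4 and 35.4 CPM in the immortalized libraries, spread most in the primary libraries, which overlapped both other stages. C3 was even, with 6.64 to 10.4, 7.78 to 8.82 and 8.96 to 10.2 CPM at these stages. A few calls depended on a library or setting: without primary 1, SERPINC1 was called in senescent over primary libraries (1.56, adjusted p = 0.0022), and without primary 2, APOE (-0.79, adjusted p = 0.0351) and TTR (-2.05, adjusted p = 0.00594) were called in immortalized over primary libraries.

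**Figure D4:**
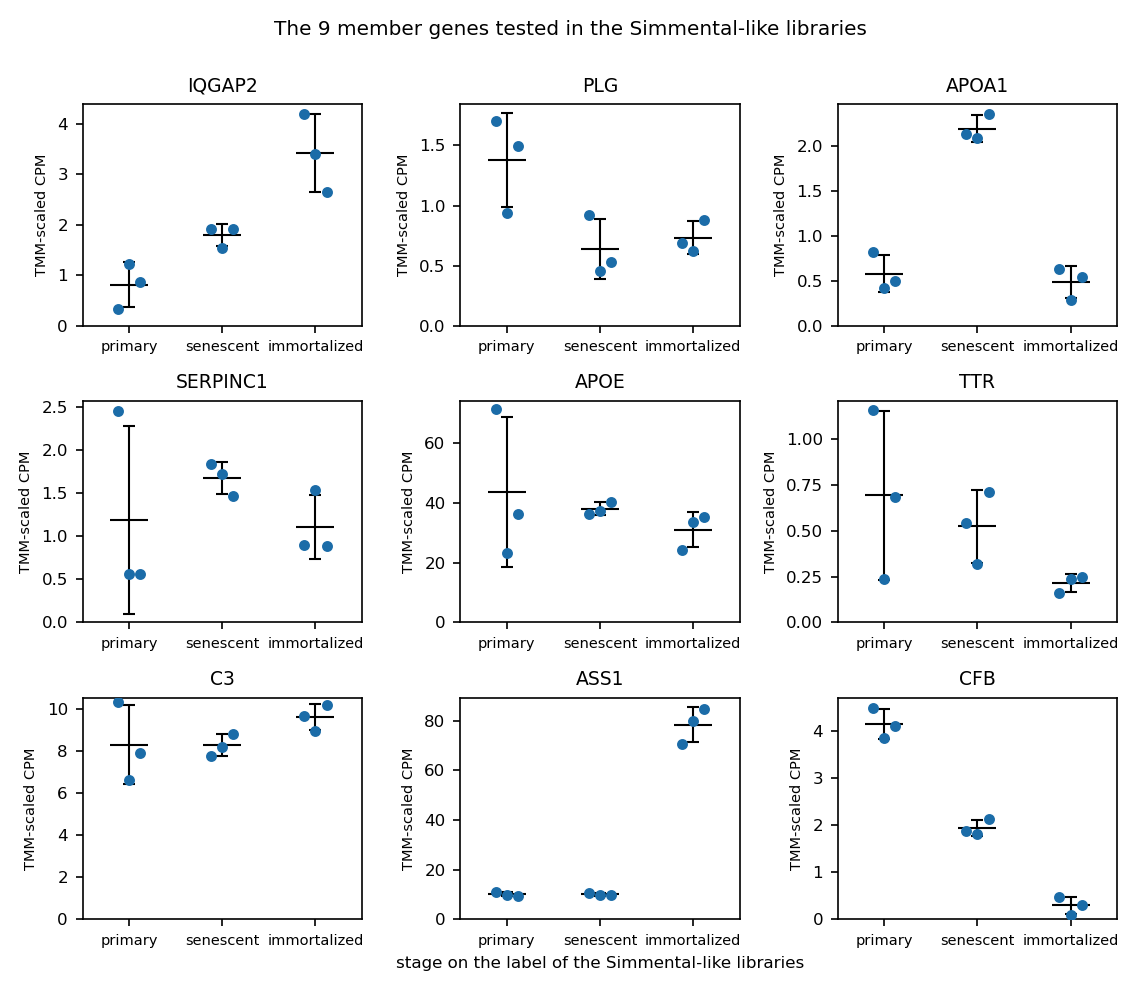
TMM-scaled CPM of the 9 members tested in the Simmental-like line, 1 panel each, for primary, senescent and immortalized libraries; points are libraries and bars the mean ± SD (n = 3). ASS1 is high in the immortalized libraries (78.5 ± 7.07 CPM), APOA1 in the senescent libraries (2.19 ± 0.147 CPM), and CFB is highest in the primary libraries (4.16 ± 0.318 CPM).

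Genes of other liver lists were read from the same Simmental-like fit, and their counts stand beside the shares of all genes called given for the members. Of 8 other complement genes tested, 1 rose and 7 fell in immortalized over primary libraries, 1 rose and 4 fell in immortalized over senescent libraries, and 2 rose and 5 fell in senescent over primary libraries. In immortalized over primary libraries C2, the classical pathway counterpart of CFB, fell by 3.70 ± 0.33 (adjusted p = 3.58e-05) and MASP1, a protease of the lectin pathway, by 3.54 ± 0.18 (adjusted p = 1.39e-06). SERPING1, the inhibitor of C1, was the exception and rose by 4.99 ± 0.51 (adjusted p = 8.31e-05). It had only 9, 2 and 1 counts in the primary libraries, against 138, 150 and 173 in the immortalized libraries, so the size of its change rests on few counts. These log2 changes are from the same edgeR fit. With total-count scaling 1 rose and 6 fell in immortalized over primary libraries and 3 rose and 3 fell in senescent over primary libraries. Of 3 other clotting genes, 3 fell in immortalized over primary libraries (1 with total-count scaling). Of 3 liver transcription factors 2 rose in senescent over primary libraries, FOXA1 by 5.16 ± 0.27 (adjusted p = 2.1e-06) and FOXA3 by 1.99 ± 0.23 (adjusted p = 0.000156). FOXA1 had only 1, 2 and 3 counts in the primary libraries, against 112, 98 and 88 in the senescent libraries, so the size of its change rests on few counts. ATF5 fell by 1.20 ± 0.11 (adjusted p = 4.05e-05) in senescent over primary libraries. In the same comparison 1 of 3 other acute phase genes rose and 1 fell. SAA3, a serum amyloid A gene, had 64 counts summed over the senescent libraries, against 3 over the primary libraries. That is a ratio of 22.3 (95% counting interval 7.30 to 111). In the immortalized libraries SAA3 had at most 0.0982 CPM, so it entered the test only through the senescent libraries, where it was high. Its call is therefore given without a p-value. CD14, the lipopolysaccharide receptor, fell by 1.74 ± 0.18 (adjusted p = 0.000109). Amino acid genes had 2 of 9 higher and 5 lower, sugar genes 1 of 7 higher and 3 lower, lipid handling genes 3 of 4 lower (1 with total-count scaling), carriers 2 of 5 lower, and bile and drug genes 3 of 5 higher and 1 lower in senescent over primary libraries. With 28.3% of all genes higher and 29.7% lower in that comparison and few genes in each list, these counts are no result about the lists.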

How the data were processed

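Per the labels' protocols, RNeasy kits were used for extraction, NEBNext Ultra II for libraries and single-end NextSeq runs for sequencing. The authors deposited expected counts, which are salmon's estimates of reads per transcript summed for each gene, as the table's name states. The build was UMD 3.1, per the submitters' processing notes. Aligner, version of salmon, annotation and strand setting: not given in the sources used here. All counts were rounded, since 1.01 to 7.18% of a library's values were not whole. Where strand was not used in counting, reads of a gene and its antisense partner cannot be told apart.

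CPM were taken over each library's total of 24596 genes. Ratios between single libraries used genes with at least 10 counts in both libraries, with exact conditional binomial intervals. The 9 Simmental-like libraries were fitted together with edgeR 4.0.16 in R 4.3.3 (TMM, filterByExpr by stage, robust quasi-likelihood fit). Alternatives were other scalings, no filter, at least 5 CPM in 3 libraries, DESeq2 1.42.0, voom in limma 3.58.1, a block by replicate number, summing the like senescent libraries 1 and 2, and leaving out each library. Only Holstein-like primary libraries (chi-square per gene of 1.20 to 1.22) and Simmental-like senescent 1 and 2 (1.34) came close to counting noise, and none was merged in the fit reported. The steps were tested on simulated data.

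The members and all lists were chosen with earlier results of these data known. Every member is accounted for, and each member called in the Simmental-like line is named. Of other lists, up to 4 genes with the highest lowest-CPM in the liver-rich libraries, and up to 4 with the largest called change, may be named, except 1 that is not reported here. The most similar genes are the 12 with the highest ratio among those with at least 100 CPM in each liver-rich library. Gene order is from a RefSeq table of another build, used for neighbours only, in which 44 members matched by symbol.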

Additional observations from a re-analysis of the deposited data

Results flagged for a closer look

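CFB differed in direction between the lines when stages were compared by mean CPM of column totals. In the Holstein-like line it averaged 3379 CPM in senescent and 2012 CPM in immortalized libraries, against 0.461 CPM in primary libraries. The single values were 108, 4619 and 5411 CPM in senescent 1, 2 and 3, and 5997, 5.01 and 33.3 CPM in immortalized 1, 2 and 3. Every senescent and immortalized library lay above the primary ones, whose levels are under the 2.05 to 2.11 CPM that 3 counts make there. In the Simmental-like line it averaged 2.25 CPM in senescent and 0.299 CPM in immortalized libraries, against 3.46 CPM in primary libraries, which is a log2 difference of -0.621 for senescent over primary and -3.53 for immortalized over primary. Every Simmental-like library of the later stages lay below the primary ones. The difference between the lines was not tested, and the Holstein-like means rest on libraries that stand apart from each other. CFB was listed for its height in immortalized 1, senescent 3 and senescent 2, so the choice of members enters these means. With total-count scaling its fall in Simmental-like senescent over primary libraries was not called, as given above.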

How the results depend on the processing

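The members' share of counts in immortalized 1, senescent 3 and senescent 2 was 31.6%, 30.4% and 29.8% without mitochondrial genes, 45.8%, 37.8% and 37.7% of TMM-scaled totals, and 26.4%, 26.0% and 20.6% without ALB. The members' median log2 ratio was -0.27 (senescent 3 over senescent 2), -0.028 (immortalized 1 over senescent 2) and 0.19 (immortalized 1 over senescent 3) when scaled to the members' sum, and -0.26, 0.25 and 0.47 with TMM. In the Simmental-like line the numbers of members called in senescent over primary, immortalized over senescent and immortalized over primary libraries were 4, 3 and 3. With total-count scaling they were 4, 3 and 4, but the 4 in senescent over primary libraries were 4 higher and 0 lower in place of 2 and 2. They were 8, 6 and 6 with no filter, where 31 members were tested, and 0, 1 and 1 with at least 5 CPM in 3 libraries, where only 3 were tested. Leaving out 1 library gave 2 to 5, 3 to 3 and 3 to 6. With a block by replicate number 3, 3 and 4 were called, but same-numbered libraries correlated at only -0.50 to 0.18, so the numbers do not show pairing, and IQGAP2 in senescent over primary libraries was then not called (adjusted p = 0.0694).

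The following single values changed sign, and some were no longer small. In senescent over primary libraries ASS1 was at -0.0034 with RLE and -0.0038 with no filter. C3 was at 0.025 with the stricter filter, 0.030 with voom, 0.011 with the block and 0.021 with senescent 1 and 2 summed. Total-count scaling, which moved the median of all genes by 0.47 in that comparison and 0.30 in immortalized over primary libraries, gave 0.34 for APOE, 0.17 for TTR and 0.49 for C3 (adjusted p = 0.0137), and in immortalized over primary libraries 0.092 for APOA1 and 0.31 for SERPINC1. SERPINC1 there was at 0.25 with voom and 0.071 with the block. Leaving out 1 library gave -0.50 to 0.36 for APOE, -0.80 to 0.27 for TTR, -0.15 to 0.18 for C3 and -0.039 to 0.068 for ASS1 in senescent over primary libraries, and -0.45 to 0.061 for APOA1, -0.41 to 0.96 for SERPINC1 and -0.79 to 0.057 for APOE in immortalized over primary libraries. Over all alternatives, 311 values kept direction and side of the threshold, 27 changed sign, 11 lost and 11 gained a call; the cause was not tested. Depth limits the Holstein-like primary libraries, where a count of 0 allows 2.05 to 2.11 CPM, and 36 members could not be tested in the Simmental-like line.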
